A study of Mus musculus with 474 samples.

Results

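Pax7, Myf5, Myod1, Myf6 and Cdh15, genes that mark or direct the muscle stem cell and its descendants, were examined in skeletal muscle. They were taken by gene symbol, and 5 of the 20612 genes deposited for the series carry these names. All 5 passed the filter on low counts and were among the 18823 genes tested. The muscle, which the methods of the study name as gastrocnemius, came from Diversity Outbred mice, a stock bred from 8 inbred founder strains so that no pair of animals has the same genome. All animals received the same high-fat, high-sugar diet and there was no group on another diet. They were collected as adults at a single age, and each gave 1 library of polyadenylated RNA. The titles carry a number (17, 18, 19, 21 or 23) that was read as the outbred generation, which made 10 groups of sex and generation. This reading is uncertain, since 17 and 23 are not among the generations named in the methods. In the order of these numbers they held 48, 45, 49, 46 and 47 females and 46, 48, 50, 47 and 48 males. Total counts ran from 35902446 to 165723762 per library with a median of 79308916. Fast muscle genes dominated the libraries, with a median of 69547 CPM (counts per 1000000 counts of the library) for Myh4, the myosin heavy chain of type IIB fibres. In 5 libraries, those of females DO048, DO153 and DO347 and males DO193 and DO308, the sex-linked RNA went against the label, and sex differences are therefore given with and without them. The founder alleles of the animals were not used here.

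Satellite cells are the stem cells of adult skeletal muscle and lie between a fibre and its basal lamina. Quiescent satellite cells express the paired-box factor Pax7. The basic helix-loop-helix factors Myf5 and Myod1 act before myogenin (Myog) carries the daughters of activated cells into differentiation. Myf6, also called MRF4, is the member of this family that mature fibres keep expressing. Cdh15 encodes M-cadherin, an adhesion molecule at the contact between satellite cell and fibre. Satellite cell nuclei are a small minority of the nuclei in muscle, and Myod1 and Myf6 are also transcribed by fibre nuclei.

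Myf5, Myod1 and Myf6 descend from a common ancestral gene, and their likeness is shown because it bears on how reads could be divided among them. The most alike ungapped coding stretch of 60 bases was searched for in the reference transcripts (GENCODE M21, GRCm38). It lay in exon 1 of 3 in each gene, at chr10:107485537-107485596 on the minus strand for Myf5, at chr7:46377086-46377145 on the plus strand for Myod1 and at chr10:107494280-107494339 on the minus strand for Myf6. Capitals mark the bases that are the same in all 3 genes:
Myf5: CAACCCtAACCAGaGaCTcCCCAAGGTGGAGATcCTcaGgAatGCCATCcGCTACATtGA
Myod1: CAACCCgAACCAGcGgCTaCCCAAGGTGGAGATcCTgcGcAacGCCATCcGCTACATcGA
Myf6: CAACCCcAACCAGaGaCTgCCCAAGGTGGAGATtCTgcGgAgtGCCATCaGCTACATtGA
Of the 60 bases, 48 were shared by all 3 genes. Over the whole transcripts, the longest run without a difference was 26 bases between Myf5 and Myod1 and 14 bases between Myf6 and each of the others.

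The genes lie at 4 loci. Pax7 (ENSMUSG00000028736) is at chr4:139737062-139833528 on the minus strand, Myod1 (ENSMUSG00000009471) at chr7:46376474-46379099 on the plus strand and Cdh15 (ENSMUSG00000031962) at chr8:122847966-122867397 on the plus strand. Myf5 (ENSMUSG00000000435, chr10:107482908-107486134) and Myf6 (ENSMUSG00000035923, chr10:107492853-107494737) are neighbours on the minus strand of chromosome 10, with 6718 bases between them. Cdh15 lies within the span of Gm20388, a long gene model on the same strand with a median of 42.8 CPM. The exons of Gm20388 and Cdh15 share 0 bases, and r between the genes was 0.04 across animals. The Cdh15 count is nevertheless uncertain to the extent that reads of the longer model fall in it. No other gene of the annotation overlapped any of the 5.

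Myf6 was the most abundant of the 5 and Pax7 and Myf5 were the least abundant, with 39.8% and 33.9% of the genes tested below them. The median over all animals was 70.0 CPM for Myf6, 19.7 for Cdh15, 12.0 for Myod1, 1.77 for Pax7 and 0.958 for Myf5. Per length (RPKM, the CPM divided by the exon length in kilobases), the medians were 55.4 for Myf6, 6.46 for Myod1, 6.05 for Cdh15, 0.460 for Myf5 and 0.302 for Pax7, so that the level per length of Myf6 stood far above the rest. These levels rested on median counts of 5766 for Myf6, 1572.5 for Cdh15, 953.5 for Myod1, 137 for Pax7 and 75 for Myf5. The deposited counts are of read ends, and both ends of a fragment can be counted.

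The spread among animals is given beside the counting error. The coefficient of variation of CPM over all animals was 45.9% for Myod1, 41.3% for Myf5, 34.9% for Pax7, 25.9% for Myf6 and 19.6% for Cdh15. Counting alone, with read pairs taken as the unit, would give 4.58% for Myod1, 16.3% for Myf5, 12.1% for Pax7, 1.86% for Myf6 and 3.57% for Cdh15. From the lowest to the highest animal, Myod1 ranged from 1.77 to 46.8 CPM, Pax7 from 0.208 to 4.46, Myf5 from 0.285 to 4.18, Myf6 from 39.4 to 185 and Cdh15 from 10.2 to 32.1. The extremes were mostly different animals. The lowest Pax7 was in the female DO482 of generation 23, on 19 counts, and Myf5 was 0.405 CPM in that animal while Myod1 was 12.1 CPM. The highest Myf5 was in the male DO390 of generation 21, in which Myf6 was also high at 155 CPM. The highest Myf6 was in the male DO384 of generation 21, which had the lowest Myog of all animals at 1.14 CPM. Myod1 was under 2 CPM in DO349 and DO168 alone, both females, and their Myf6 was 83.2 and 126 CPM.

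**Figure D1:**
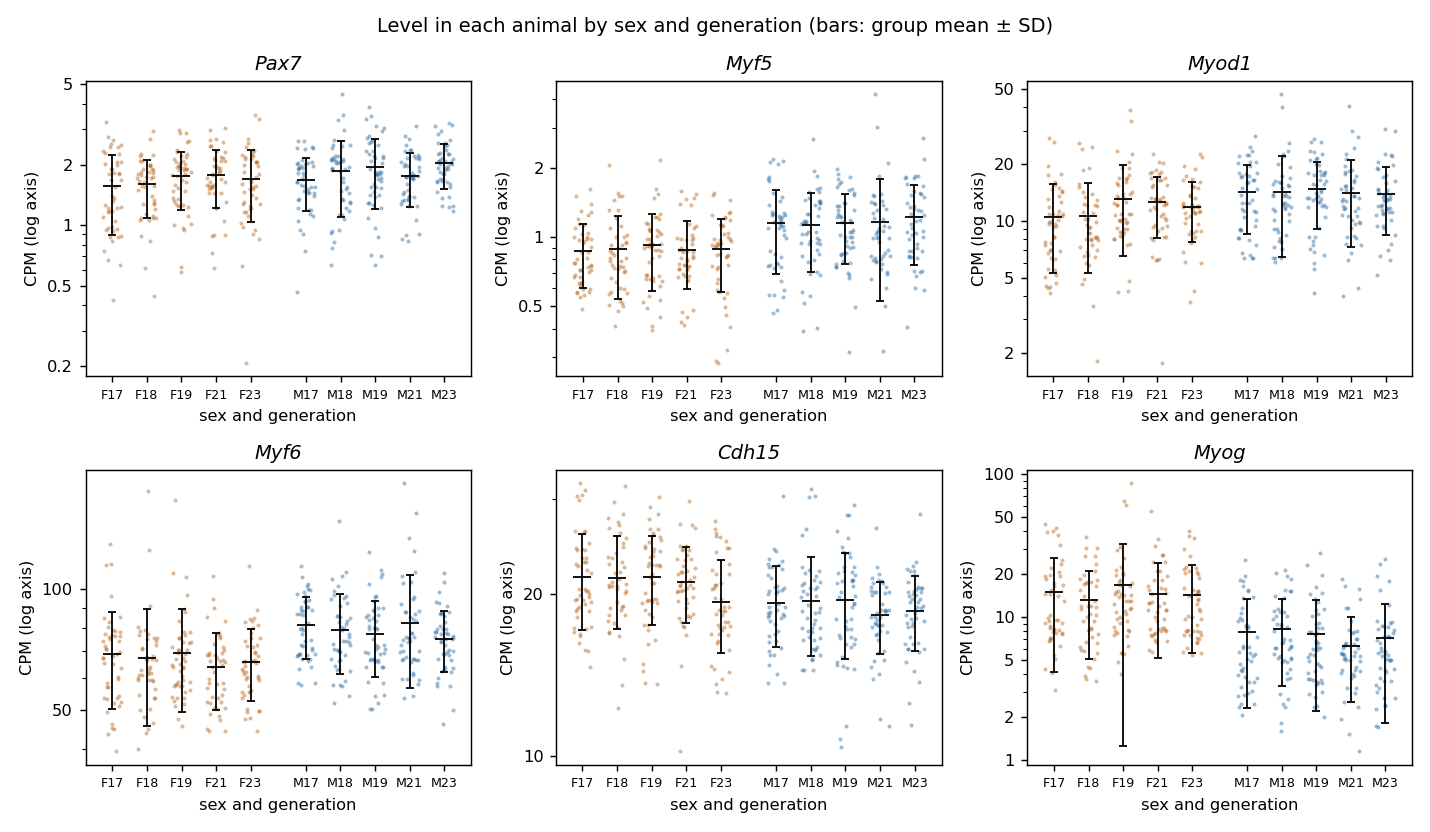
CPM (log axis) of the 5 genes and of Myog in each animal (points) by sex (F, M) and generation, with the mean ± SD of each group in black. The male groups sit above the female groups for Myf5, Myod1 and Myf6, below them for Myog, and the animals of both sexes overlap in every panel.

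The first comparison asked how the genes differ between the sexes, with generation as covariate. Pax7, Myf5, Myod1 and Myf6 were higher in males and Cdh15 was lower. In all, 5 of 5 genes differed by the quasi-likelihood test of edgeR (adjusted p under 0.05 over all genes tested). Sex differences were common in this tissue, and 55.0% of all genes tested were called, 24.4% as higher in males and 30.6% as lower, so the count of 5 is read against that share. The median difference over all genes tested was -0.01 on the log2 scale. RNA of whole muscle does not tell apart fewer cells of a type from less RNA per cell.

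Pax7, the marker of satellite cell identity, had the smallest male excess. In females its lowest, median and highest levels were 0.208, 1.67 and 3.52 CPM (mean 1.68 ± 0.597, SD, 5 groups of females), and in males 0.468, 1.83 and 4.46 CPM (mean 1.85 ± 0.626, SD, 5 groups of males). The ranges overlapped almost completely, and 60.3% of males (95% Wilson interval 53.9 to 66.2%) were above the female median. The log2 difference between males and females was 0.14 ± 0.05 (SE, edgeR adjusted p = 0.00822). With libraries scaled by total count alone the adjusted p was 0.0434.

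Myf5, a factor of early commitment, had the largest male excess of the 5 in the edgeR fit. Its lowest, median and highest levels were 0.285, 0.859 and 2.18 CPM in females (mean 0.890 ± 0.309, SD) and 0.316, 1.10 and 4.18 CPM in males (mean 1.16 ± 0.476, SD). The bulk of both sexes overlapped, with 71.1% of males (65.1 to 76.5%) above the female median. The log2 difference was 0.39 ± 0.05 (SE, edgeR adjusted p = 2.16e-13). On the deposited variance-stabilised score, which compresses low counts, the difference was 0.17, below those of Myod1 (0.25) and Myf6 (0.24).

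Myod1, which commits cells to the muscle lineage, was also higher in males. It ran from 1.77 over a median of 10.9 to 38.7 CPM in females (mean 11.7 ± 5.28, SD) and from 4.002 over 13.1 to 46.8 CPM in males (mean 14.2 ± 6.33, SD). Again the sexes overlapped widely, and 70.3% of males (64.2 to 75.7%) exceeded the female median. The log2 difference was 0.28 ± 0.06 (SE, edgeR adjusted p = 3.88e-06).

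Myf6, the factor of mature fibres, separated the sexes best of the 5. Its levels in females were 39.4, 65.3 and 176 CPM at the lowest, median and highest animal (mean 67.2 ± 17.9, SD), and in males 45.9, 75.6 and 185 CPM (mean 79.1 ± 18.2, SD). Of the males, 81.6% (76.2 to 86.0%) were above the female median. The log2 difference was 0.23 ± 0.03 (SE, edgeR adjusted p = 5.32e-13).

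Cdh15 went the other way. Females ran from 10.2 over 20.5 to 32.1 CPM (mean 20.99 ± 4.03, SD) and males from 10.4 over 18.7 to 31.3 CPM (mean 19.02 ± 3.55, SD). Both ranges nearly coincided, and 29.7% of males (24.3 to 35.8%) were above the female median. The log2 difference was -0.14 ± 0.02 (SE, edgeR adjusted p = 1.04e-07).

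Myog, the differentiation factor and not a member of the set, differed more than any of the 5 genes and in the other direction from Myod1. Its median was 11.5 CPM in females (3.09 to 86.8) and 5.77 CPM in males (1.14 to 27.95), and 16.3% of males were above the female median. The log2 difference was -0.997 ± 0.08 (SE, edgeR adjusted p = 2.08e-27). Without the 5 libraries whose sex-linked RNA went against the label, the log2 differences were 0.14 for Pax7 (adjusted p = 0.0103), 0.38 for Myf5, 0.29 for Myod1, 0.23 for Myf6, -0.14 for Cdh15 and -0.99 for Myog, and the 5 genes of the set stayed past the threshold.

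**Figure D2:**
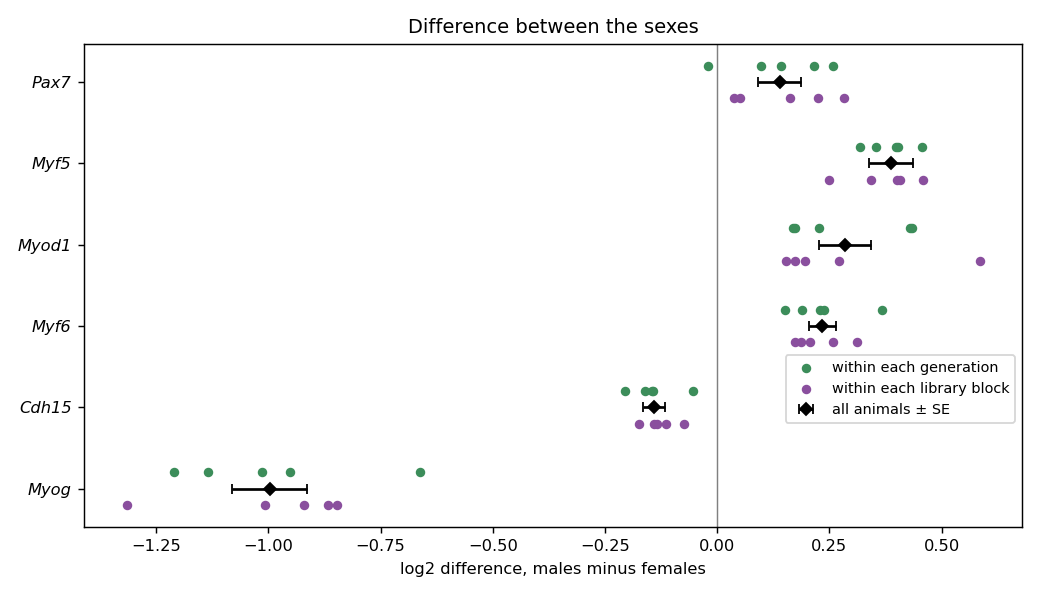
Log2 difference between males and females for the 5 genes and Myog. Black diamonds give the fit over all animals with its SE, and coloured points give the fits within each of 5 generations and each of 5 library blocks. Points of Myf5, Myod1 and Myf6 lie right of 0 throughout, those of Cdh15 and Myog left of it, and Pax7 has a single point left of 0, at -0.02.

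The sex differences were then recomputed within each generation and within each of 5 blocks of consecutive library numbers, which may mark separate preparations although the labels do not say so. The estimate for Myf5 was positive in 5 of 5 generations (log2 0.32 to 0.46) and 5 of 5 blocks (0.25 to 0.46). That for Myf6 was positive in 5 of 5 generations (0.15 to 0.37) and 5 of 5 blocks (0.17 to 0.31), and Myod1 in 5 of 5 generations (0.17 to 0.43) and 5 of 5 blocks (0.15 to 0.58). For Cdh15 it was negative in every generation (-0.21 to -0.05) and every block (-0.17 to -0.08). For Pax7 it was positive in 4 of 5 generations, with -0.02 in generation 21 and up to 0.26 in the others, and in 5 of 5 blocks (0.04 to 0.28). With 91 to 99 animals in each of these fits fewer calls were made, 23.3 to 27.6% of the genes tested within generations and 19.4 to 28.6% within blocks. Of 5 generations, Myf5 passed the threshold in 5, Myf6 in 4, Myod1 and Cdh15 in 2 and Pax7 in 1. Of 5 blocks, Myf5 passed in 4, Myf6 in 3, Cdh15 in 2 and Myod1 and Pax7 in 1.

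The share of the variance of a gene that lay between the sexes was 12.5% for Myf6, 9.99% for Myf5, 5.73% for Cdh15, 5.41% for Myod1 and 2.32% for Pax7, against 1.35% in the median gene tested. Sex therefore left most of the variation among animals in place for each of these genes.

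No difference between generations was called for them. Of the 5 genes, 0 were called by edgeR, and since 7.56% of all genes tested were called, a count of 0 among 5 genes sets them apart in no way. DESeq2 and limma also called 0 of the 5, and at an unadjusted p under 0.05 edgeR had 1 of them and DESeq2 and limma 2 each. Generation took 2.12% of the variance of Cdh15, 1.99% of Pax7, 1.45% of Myod1, 0.549% of Myf6 and 0.201% of Myf5, against 0.952% in the median gene tested. The largest distance between generation means on the log2 scale was 0.20 for Pax7 (adjusted p = 0.262), 0.19 for Myod1 (0.501), 0.11 for Cdh15 (0.161), 0.09 for Myf6 (0.748) and 0.06 for Myf5 (0.979). In females of generations 17, 18, 19, 21 and 23, mean Pax7 was 1.56, 1.60, 1.75, 1.78 and 1.70 CPM, and in males 1.67, 1.85, 1.94, 1.76 and 2.03 CPM. Mean Myf5 in the same order was 0.871, 0.885, 0.920, 0.881 and 0.889 CPM in females and 1.15, 1.13, 1.15, 1.16 and 1.22 CPM in males.

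Mean Myod1 in that order was 10.5, 10.5, 13.1, 12.6 and 11.8 CPM in females and 14.2, 14.2, 14.8, 14.1 and 13.9 CPM in males. Mean Myf6 was 69.0, 67.6, 69.4, 64.0 and 65.9 CPM in females and 81.4, 79.3, 77.2, 82.5 and 75.2 CPM in males. For Cdh15 the means were 21.5, 21.4, 21.6, 21.1 and 19.3 CPM in females and 19.2, 19.4, 19.5, 18.3 and 18.6 CPM in males. Ordered by their means, the 5 male groups stood above the 5 female groups for Myf5, Myod1 and Myf6, while the groups of both sexes were interleaved for Pax7. For Cdh15 the females of generation 23 stood among the males. The 9 pairs of neighbours in each order were closer than the SD among animals of either group, as they also were for Myog, and single steps were not tested.

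The sex difference itself was not called as different between generations for any of the 5 genes (0 of 5, edgeR adjusted p = 1 for each, 0 of 5 at an unadjusted p under 0.05), against 0.531% of all genes tested. limma on the deposited score likewise called 0 of the 5. The spread around the group medians was also compared between the sexes with limma. Again 0 of 5 genes were called, against 5.55% of all genes tested. Myf5 came closest, with a mean absolute deviation of 0.165 in females and 0.206 in males on the deposited score (adjusted p = 0.0621, unadjusted p = 0.00388, the single gene of the 5 under 0.05). On log2 CPM its adjusted p was 0.446 and 0 of the 5 were under 0.05 unadjusted.

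Library blocks did move with some of the genes. Between the 5 blocks, with sex and generation as covariates, Myf5 (log2 range 0.33, edgeR adjusted p = 0.000595), Myf6 (0.19, adjusted p = 0.00573) and Cdh15 (0.19, adjusted p = 9.51e-06) were called, against 47.4% of all genes tested. Mean Myf5 was 1.18 CPM in the first block and 0.915 to 1.07 in the others, mean Myf6 was 79.0 against 69.4 to 73.7 CPM, and mean Cdh15 was 18.2 against 19.7 to 20.9 CPM. The first block was thus high in Myf5 and Myf6 and low in Cdh15. Pax7 (0.15, adjusted p = 0.28) and Myod1 (0.22, adjusted p = 0.101) were not called, though Myod1 was with total count scaling (0.0258) and with limma on the deposited score (0.0358), while Myf6 was not called by the latter (0.12). With block as a covariate the sex difference was 0.37 for Myf5 and 0.15 for Pax7.

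Other genes of the pathway were read from 4 lists, whose counts are set beside the 55.0% of all genes tested that were called between the sexes (24.4% higher in males, 30.6% lower). Of 17 other satellite cell genes tested, 7 were higher in males, 8 were lower and 2 were not called, with a median log2 difference of 0.02. Spry1, an inhibitor of receptor tyrosine kinase signalling that keeps satellite cells quiescent, was 10.6 ± 1.88 CPM in the females against 12.5 ± 2.17 in the males (log2 0.23, adjusted p = 4.81e-20). The heparan sulphate proteoglycan Sdc4 was 43.0 ± 13.9 and 51.1 ± 15.4 CPM (0.25, adjusted p = 6.51e-10). Ncam1, an adhesion molecule, was lower in males at 9.47 ± 2.14 against 11.2 ± 2.44 CPM (-0.24, adjusted p = 5.85e-17), and so was the engulfment receptor Megf10 at 1.20 ± 0.359 against 1.43 ± 0.430 CPM (-0.25, adjusted p = 2.26e-09). The called genes of this list stood in both directions. Their summed level was 156.3 to 292.2 CPM in females (median 208) and 160 to 330 CPM in males (median 220.99), and 0 of the 17 had a median of 0.

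Of 14 differentiation and fusion genes, 5 were higher in males, 5 lower and 4 not called (median log2 -0.03), beside 24.4% and 30.6% of all genes. Cdkn1c, a cell-cycle inhibitor, was 7.80 ± 1.67 CPM for females while males had 12.3 ± 4.12 (log2 0.66, adjusted p = 3.27e-58). Another inhibitor of the cell cycle, Cdkn1a, was lower in males at 34.6 ± 13.02 against 51.5 ± 25.3 CPM (-0.58, adjusted p = 4.69e-22). Bin1, which shapes the T-tubule membrane, was 336.5 ± 35.3 and 375.7 ± 34.8 CPM (0.16, adjusted p = 7.82e-28). Among 15 partners and inhibitors of the myogenic factors, 7 were higher in males, 0 were lower and 8 were not called (median log2 0.06), so that their share called was no larger than the 55.0% of all genes. Bhlhe41, a repressor of the helix-loop-helix class, had 26.7 ± 9.57 CPM in females, below the 37.0 ± 9.35 CPM of males (log2 0.47, adjusted p = 1.18e-25).

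Of the E-proteins, the dimer partners of Myf5, Myod1 and Myf6, Tcf4 differed by 0.10 (adjusted p = 1.37e-10) and Tcf12 by 0.05 (adjusted p = 4.8e-05) on the log2 scale, both higher in males, while Tcf3 was not called (0.01, adjusted p = 0.864). The Tcf12 call was lost when libraries were scaled by total count alone (adjusted p = 0.197). Id3, which sequesters E-proteins, was higher in males by 0.12 (adjusted p = 7.44e-05). Of 13 denervation-responsive and junction genes, 7 were higher in males, 3 lower and 3 not called (median log2 0.16), again beside 24.4% and 30.6% of all genes. Musk, the receptor kinase that builds the neuromuscular junction, was 23.2 ± 9.37 CPM on average among females compared with 39.6 ± 13.9 among males (log2 0.77, adjusted p = 7.07e-43). Chrne, the adult subunit of the acetylcholine receptor, differed by 0.29 (adjusted p = 3.67e-15) and Runx1 by 0.31 (adjusted p = 9.77e-10), both higher in males.

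Between generations, the counts of the 4 lists are read against the 7.56% of all genes called. Of the 17 other satellite cell genes 2 were called, Hes1 (log2 range 0.44, adjusted p = 0.00237) and Spry1 (0.14, adjusted p = 0.00312). None of the 14 differentiation genes was called (0 of 14), 2 of 15 partners and inhibitors were, Twist1 (0.26, adjusted p = 0.0111) and Tcf12 (0.06, adjusted p = 0.0443), and 1 of 13 junction genes was, Hdac4 (0.31, adjusted p = 8.36e-14). The Tcf12 call between generations was lost with DESeq2 (adjusted p = 0.0504) and with block as a covariate (adjusted p = 0.117).

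Markers of fibre types and of some other cells moved with sex as well, which is read against the 55.0% of all genes called. Of 9 slow-fibre genes, 9 were lower in males (median log2 -0.45), and their summed level was 656.9 to 10433 CPM in females and 961 to 8508 CPM in males. Of 11 fast-fibre genes, 6 were higher and 3 lower in males. Of 8 endothelial genes, 6 were higher and 1 lower, and of 7 smooth muscle and pericyte genes 6 were higher and 0 lower. Of 8 fibro-adipogenic progenitor genes, 2 were higher and 5 lower, of 7 adipocyte genes 1 and 6, and of 12 mitosis genes 1 and 11. The macrophage list held 8 genes, of which 1 was lower and 0 higher, and among 6 Schwann cell markers 2 were lower and 0 higher. With the slow-fibre and fast-fibre scores as covariates the 5 genes were still called, with Pax7 at 0.17, Myf5 at 0.38 and Myod1 at 0.24. The part of the other cell types in the sex differences was not tested.

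The second question was whether the genes vary together from animal to animal. Correlations were taken over all animals on the deposited variance-stabilised scores after sex and generation were removed, with p-values from 100000 permutations adjusted over the 10 pairs. The genes were for the most part weakly related. Of the 10 pairs, 5 had an adjusted p under 0.05. The median absolute r with all genes was 0.11 for Cdh15, 0.07 for Myod1 and 0.06 for Pax7, Myf5 and Myf6. Ranked by r with Cdh15 among 18821 genes, Myf6 stood at 2565, Myod1 at 3203 and Pax7 at 4189.

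**Figure D3:**
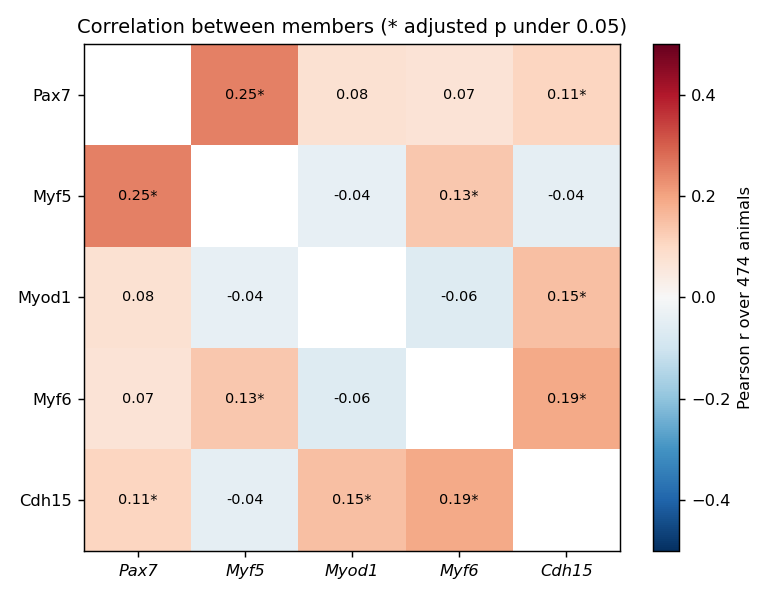
Pearson r between each pair of the 5 genes over all animals after sex and generation were removed. Asterisks mark the 5 pairs with an adjusted permutation p under 0.05, of which Pax7 with Myf5 (0.25) is the strongest.

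Pax7 and Myf5 were the most closely related pair, with r = 0.25 and rho = 0.23 (adjusted permutation p = 0.0001 for both; before adjustment both were 1e-05, the smallest that 100000 permutations can give). They shared 6.33% of their variance, r was 0.24 without the 2 animals farthest from the median of Pax7, and it was positive in 5 of 5 blocks (0.20 to 0.39) and 5 of 5 generations (0.14 to 0.32). Among all other genes, Myf5 ranked 80 of 18822 by r with Pax7. Myf6 and Cdh15 had r = 0.19 and rho = 0.18 (adjusted permutation p = 0.0004 and 0.0006), with 0.00 to 0.39 across blocks and -0.05 to 0.35 across generations. Myod1 and Cdh15 had r = 0.15 and rho = 0.13 (adjusted permutation p = 0.00337 and 0.0187), with 0.00 to 0.22 across blocks and 0.05 to 0.29 across generations.

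The neighbours Myf5 and Myf6 had r = 0.13 and rho = 0.11 (adjusted permutation p = 0.0095 and 0.0387). That relation rested in part on extreme animals, since r was 0.10 without the 2 farthest from the median of Myf5 (adjusted permutation p = 0.0575), and within blocks it ran from -0.02 to 0.29. Pax7 and Cdh15 had r = 0.11 and rho = 0.12 (adjusted permutation p = 0.0407 and 0.0312), with -0.05 to 0.29 across blocks. Myod1 did not pass the threshold with Myf5 (r = -0.04, adjusted permutation p = 0.366), with Myf6 (r = -0.06, adjusted permutation p = 0.208) or with Pax7 (r = 0.08, adjusted permutation p = 0.172). Pax7 with Myf6 (0.07) and Myf5 with Cdh15 (-0.04) did not pass either. Of these pairs, 3 passed when sex and generation were not removed, with r = 0.12 for Pax7 with Myod1 (adjusted permutation p = 0.0261), 0.11 for Pax7 with Myf6 (0.0388) and -0.13 for Myf5 with Cdh15 (0.0197). In that setting the calls of Pax7, Myod1 and Myf6 with Cdh15 were lost (adjusted permutation p = 0.351, 0.124 and 0.11). The call of Pax7 with Cdh15 was also lost with the fibre scores added. Without the 5 libraries whose sex-linked RNA went against the label, the called pairs had r of 0.11 to 0.25 and stayed past the threshold.

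For 1 of the 10 pairs r differed between the sexes. Myod1 and Cdh15 had r = 0.29 among males and 0.01 among females, a difference of 0.28 (permutation of the sex labels, p = 0.00372, adjusted over the 10 pairs p = 0.0372). For Myf6 and Cdh15 r was 0.07 in males and 0.29 in females (adjusted permutation p of the difference = 0.108), and for Pax7 and Myod1 it was -0.03 and 0.18 (adjusted permutation p = 0.108). This test was added after the values within each sex had been seen.

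Myog was related most closely to Myod1, with r = 0.20 and rho = 0.20 (adjusted permutation p = 0.0001 for r), and r with Pax7 was -0.12 (adjusted permutation p = 0.0266). With Myf5 (-0.09), Myf6 (0.08) and Cdh15 (0.01) it did not pass the threshold. None of the 5 genes was related to the total count of the library at an adjusted permutation p under 0.05, and the largest r was 0.10 for Myf6 (adjusted permutation p = 0.13).

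Each gene was then compared with a score for each of the 13 lists, the mean of the scaled residuals of the genes of the list, which made 65 relations. Of these, 16 had an adjusted permutation p under 0.05, and Myf5 and Myod1 had 0 of them. Myf5 with the macrophage score (r = -0.11, adjusted permutation p = 0.0667) passed on log2 CPM (-0.12, adjusted permutation p = 0.0357) and with block added (adjusted permutation p = 0.0414). Pax7 went with the other satellite cell genes (r = 0.42, rho = 0.38, adjusted permutation p = 0.000108 for r, 0.24 to 0.52 within blocks and 0.31 to 0.49 within generations). It also had r = -0.19 with the macrophage score (adjusted permutation p = 0.000244) and weaker relations with the partners and inhibitors (0.14) and with smooth muscle and pericyte genes (0.12).

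Myf6 and Cdh15 had 7 and 5 of the 16 relations, and both shared the negative sign of Pax7 with the macrophage score. How often other genes pass with these scores was not computed. Cdh15 had an r beyond 0.3 with 10.2% of all genes, against 0.228% for Myf6, so its relations may not be particular to these lists. Myf6 had r = 0.24 with the differentiation and fusion genes (adjusted permutation p = 0.000108, 0.08 to 0.42 within blocks), 0.15 with denervation and junction genes, -0.22 with mitosis genes, -0.18 with macrophage, -0.16 with adipocyte, and -0.15 with both the fibro-adipogenic progenitor score and the partners and inhibitors. Cdh15 had r = 0.38 with the fast-fibre score (rho = 0.37, adjusted permutation p = 0.000108, 0.28 to 0.47 within blocks), -0.32 with the fibro-adipogenic progenitor score, -0.23 with mitosis, -0.20 with macrophage and -0.14 with adipocyte. With the other satellite cell genes, r was 0.03 for Cdh15 (adjusted permutation p = 0.653) and 0.06 for Myf5 (adjusted permutation p = 0.314).

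**Figure D4:**
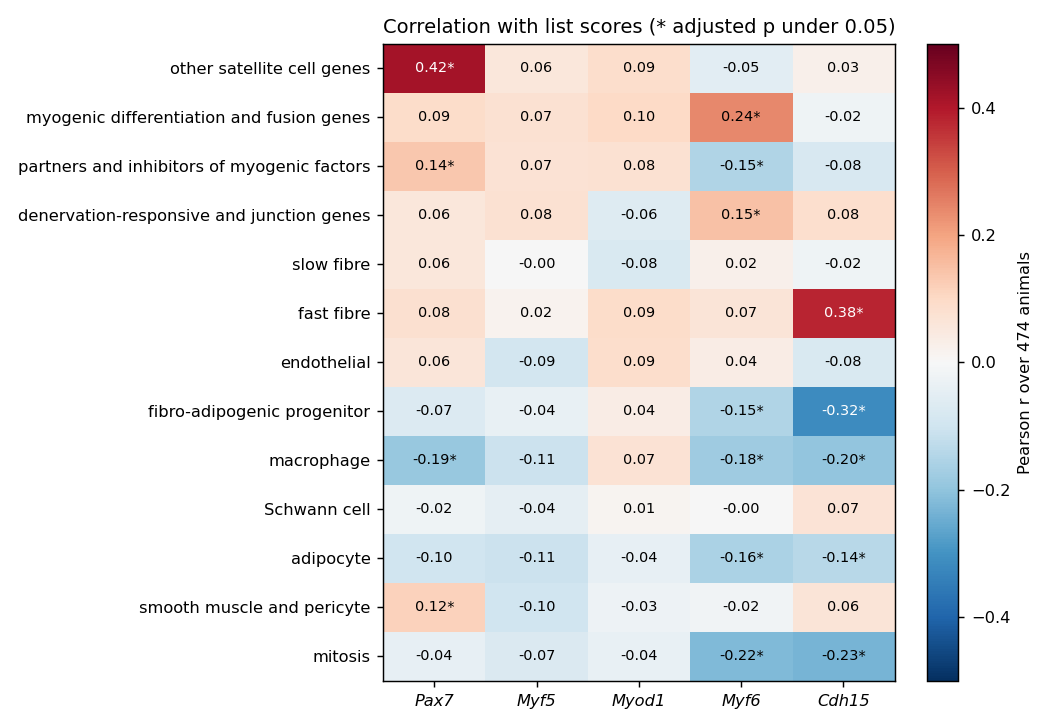
Pearson r over all animals between each of the 5 genes (columns) and the score of each of 13 gene lists (rows), after sex and generation were removed. Asterisks mark the 16 relations with an adjusted permutation p under 0.05. Pax7 is darkest with other satellite cell genes (0.42), Cdh15 with fast-fibre genes (0.38), and the columns of Myf5 and Myod1 hold no asterisk.

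The single genes whose pattern over animals was most like each of the 5 are given as a description, by Pearson r over the same animals, which share library and depth. For Pax7 they were Fgfr4 (0.55), a receptor for fibroblast growth factors, Edn3 (0.53), which encodes endothelin 3, the Notch target Heyl (0.46), Chrdl2 (0.40), a chordin-like protein that binds bone morphogenetic proteins, and Cxxc5 (0.38). Within blocks, r with Fgfr4 was 0.47 to 0.66 and r with Edn3 was 0.43 to 0.62. Fgfr4, Heyl and Chrdl2 are also on the list of other satellite cell genes. Most opposite were Glul (-0.39), the glutamine synthetase, the ceramidase Acer2 (-0.39) and the interferon-inducible Ifi204 (-0.37). Fgfr4 was lower in males by 0.12 on the log2 scale and Chrdl2 higher by 0.24, so the genes most like Pax7 among animals stood on either side of it between the sexes.

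For Myf5 the most alike gene was Ptprq (0.47, 0.39 to 0.52 within blocks), a receptor-type phosphatase whose gene starts 34141 bases from that of Myf5 on the same chromosome. It was followed by the calcitonin receptor Calcr (0.31), a surface marker of quiescent satellite cells, Cbx3 (0.31), the cell-cycle inhibitor Cdkn1b (0.30) and Tmem47 (0.30). Most opposite were Nav3 (-0.31), also on chromosome 10, the basement membrane proteoglycan Hspg2 (-0.29) and the kinase Pak4 (-0.27). For Myod1 the most alike were Plekhh3 (0.56), Ahdc1 (0.51), the ceramide synthase Cers1 (0.49), Lrrc38 (0.46) and Zbtb7b (0.46), and the most opposite were Klf6 (-0.51), Fam214a (-0.49) and Trp53inp1 (-0.48).

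For Myf6 they were Clip1 (0.46), which binds microtubule ends, the phosphodiesterase Pde4b (0.42), Arnt (0.41), the ankyrin Ank3 (0.39) and Filip1 (0.39), with Fam78a (-0.43), Foxo6 (-0.37) and Vav2 (-0.32) opposite. For Cdh15 they were Aprt (0.65), an enzyme of purine salvage, Ubxn6 (0.61), Clptm1 (0.60) and Bag6 (0.59), with Far1 (-0.49), Sh3bgrl (-0.47) and Fam126b (-0.47) opposite. Cdh15 was tied to far more genes than the others. An r beyond 0.3 in either direction was found with 10.2% of all genes for Cdh15, 1.28% for Myod1, 0.313% for Pax7, 0.228% for Myf6 and 0.0266% for Myf5. None of the 5 genes was among the 5 most alike of another.

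Near each gene on the chromosome, genes whose starts lay within 4 Mb were examined in the same way. The windows of Myf5 and Myf6 held 21 genes each, the same ones apart from Myf5 and Myf6 themselves. In both, the highest r was with Ptprq, at 0.47 for Myf5 and 0.22 for Myf6 (0.14 to 0.26 within blocks). Yet Myf6 lies closer to Ptprq, with 24196 bases between the starts. The median absolute r in the window was 0.09 for Myf5 and 0.06 for Myf6, against 0.06 over all genes for both. Myod1 had r = 0.44 with Mamstr, a coactivator of Mef2 factors 736497 bases away, and 0.36 with Fut2. Pax7 had 0.35 with Asap3 and 0.30 with Arhgef10l. Cdh15 had 0.65 with Aprt, 273331 bases away, and 0.58 with Trappc2l, 236326 bases away, while its median absolute r was 0.11 in the window and 0.11 over all genes. Aprt and Trappc2l lie, like Cdh15, in the span of Gm20388. So do other genes of the window with high and low r, such as Rnf166 (0.40), Galns (0.04) and Acsf3 (-0.08). Neighbours in an outbred stock share founder haplotypes, and the founder alleles were not used here, so their part was not tested.

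**Figure D5:**
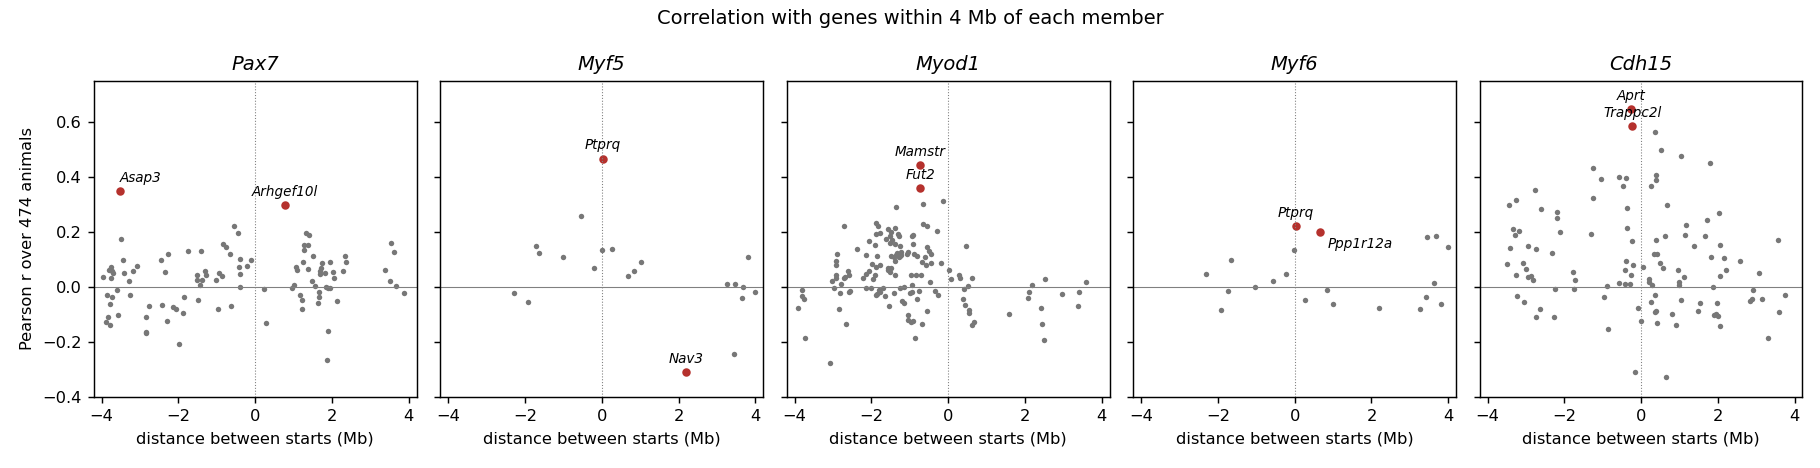
Pearson r over all animals with each gene whose start lies within 4 Mb of the start of the named gene, against the distance between starts in Mb. Red points name the 2 genes of each window with the largest absolute r. Ptprq stands apart next to Myf5 (0.47), and is also the highest point for Myf6 (0.22).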

How the data were processed

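Polyadenylated RNA of 474 muscles (235 female, 239 male) was sequenced as read pairs. Per the methods of the study, the authors pooled both mates, mapped them unpaired to the transcripts of 8 founder strains, and used EMASE within GBRS to estimate the expected count of each gene. Genes with under 1 read in 50% of samples were removed by them. The deposited expected counts are unnormalised read ends, of which 68.6% were whole numbers. A second deposited table holds a score, made by the variance stabilising transform of DESeq2 and close to log2 in unit. The submitters' processing notes name GRCm38, and the positions of the 5 genes and Myog equal those of GENCODE M21. Versions of the aligner and use of strand are not given in the sources used here. Columns were matched to samples by animal name, although the columns of DO048 and DO308, and of DO309 and DO310, stand in exchanged order relative to the list of samples.

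Counts were rounded and tested in R 4.3.3 with edgeR 4.0.16 (TMM, factors 0.871 to 1.29, quasi-likelihood F-test, filterByExpr with a minimum count of 10, which removed 1789 genes), with Benjamini-Hochberg adjustment and a threshold of 0.05. limma 3.58.1 and DESeq2 1.42.0 served as alternatives, and limma tested the spread. Scripts were tested on simulated data. CPM used TMM library sizes. Wave, a covariate of the study, is not in the labels and was not fitted. Blocks of library numbers (219 to 314, 323 to 418, 419 to 514, 515 to 610, 611 to 701) start after a gap of more than 3 numbers or after 96 numbers. Correlations, permutation tests (100000 resamples, 2-sided) and Wilson intervals were computed in Python 3.11.15 with scipy 1.17.1 and numpy 2.4.6. Intervals cover counting error over animals only. Female labels with under 10 CPM of Xist or with Y-linked counts, and male labels with the reverse, were set aside in 1 alternative.

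The 5 genes and all gene lists were chosen with earlier results of these data known. Genes named are the 5, Myog, up to 4 genes per list with the smallest p for sex and up to 2 for generation among those called in the first 4 lists, the 5 most alike and 3 most opposite genes of each member, and the 2 genes with the largest absolute r within 4 Mb. Of the genes this rule names, 2 are not reported here. A few genes (Gm20388, and Chrdl2, Fgfr4 and Tcf3 by sex) and extreme animals were named after their values were seen. Alternatives were DESeq2, limma on the deposited score, total count scaling, no filter, a minimum count of 50, block or fibre scores as covariates, log2 CPM with a prior count of 2, and removal of mismatched libraries or extreme animals.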

Additional observations from a re-analysis of the deposited data

Results flagged for a closer look

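The relation between Myod1 and Cdh15 differed between the sexes. In males r was 0.29 and in females 0.01, a difference of 0.28 (permutation of the sex labels, p = 0.00372, adjusted over 10 pairs p = 0.0372). The test was added after the values within each sex had been seen. No single group was tested for extreme samples, since each held more than 10 animals.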

How the results depend on the processing

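The sex difference of each of the 5 genes kept its direction and its call in all 8 alternatives. The ranges on the log2 scale were 0.09 to 0.17 for Pax7 (adjusted p 0.00261 to 0.0434), 0.17 to 0.39 for Myf5, 0.24 to 0.29 for Myod1, 0.20 to 0.24 for Myf6 and -0.17 to -0.13 for Cdh15, with the lowest values of Pax7 and Myf5 on the deposited score. No alternative called any of the 5 between generations (0 of 5 in each of 8). Total count scaling lowered the share of all sex calls that were higher in males from 44.3% to 30.8%, and the median log2 difference of all genes from -0.01 to -0.05. Over all genes, the interaction of sex and generation was called for 0.531% in edgeR and for 0 with limma on the deposited score, and the spread for 5.55% on the deposited score and 3.66% on log2 CPM. The cause was not tested. On log2 CPM the spread difference between males and females was -0.00104 for Myod1 and 0.0123 for Myog. Without covariates r was 0.0374 for Myf5 with Myod1 and 0.0175 for Myod1 with Myf6, and with block added it was 0.000999 for Myf5 with Cdh15. Of the 5 called pairs, Myf5 with Myf6 was lost without the 2 farthest animals, Pax7 with Cdh15 with the fibre scores added (r = 0.07, adjusted permutation p = 0.189), and Pax7, Myod1 and Myf6 with Cdh15 when sex and generation were not removed (0.05, 0.08 and 0.08), while that setting gained Pax7 with Myod1 and Myf6 and Myf5 with Cdh15. List relations numbered 19 on log2 CPM and 18 with block added, against 16, and both settings gained Myf5 with the macrophage score. No paired analysis was possible because each animal gave a single library and the groups share no animal numbers. Pax7 and Myf5 rest on medians of 137 and 75 counts, so small differences between animals are not resolved for them.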
